A study of Mus musculus with 6 samples.

Results

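The AP-1 and immediate early genes described here are 10 genes taken by symbol from the 23366 genes counted in each library: *Fos*, *Fosb*, *Fosl1*, *Fosl2*, *Jun*, *Junb*, *Jund*, *Atf3*, *Egr1* and *Ier2*. They were measured by RNA-sequencing in epithelial cells of the mouse small intestine at embryonic day 13.5. The mutant group is *Shh-cre-egfp:Tcf7l1 lox/lox*, in which Cre expressed from the *Shh* locus removes a floxed exon of *Tcf7l1*, the gene of a TCF/LEF transcription factor of the WNT pathway, in gut epithelium. The other group is wild type, and each group has 3 libraries, numbered 1 to 3, made from 500 sorted living EpCAM-positive cells after collagenase digestion of the dissected intestine. No library is described as carrying Cre without the floxed alleles, and whether a library held cells of a single embryo or of several is not given in the sources used here.

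AP-1 is a transcription factor made of pairs of proteins joined by a leucine zipper. JUN proteins pair with each other or with FOS proteins, FOS proteins need a JUN partner, and ATF3 can join the JUN proteins or pair with itself, often as a repressor. *Fos*, *Egr1*, *Ier2* and their kin are called immediate early genes because growth factors, MAP kinase signals and stress switch them on within minutes without new protein synthesis, and taking cells out of a tissue is known to do so too. In the intestine, JUN is known for its cooperation with the WNT pathway in proliferating epithelium.

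Promoter windows of 7 of the 10 genes were found in the RefSeq table of build GRCm38.p6, each running from 250 bases before the start of transcription to 50 bases after it, and each was placed in mm9 by an exact match. *Fosl1*, *Egr1* and *Ier2* had no entry. The windows of *Fos*, *Jun* and *Atf3* are shown because these 3 genes moved in different directions, *Fos* and *Jun* down and *Atf3* up, as described further on. The *Fos* window is chr12:86814590-86814889 on the plus strand, that of *Jun* chr4:94718864-94719163 on the minus strand and that of *Atf3* chr1:193007163-193007462 on the minus strand of mm9. Capitals mark matches to the motifs searched.
Fos: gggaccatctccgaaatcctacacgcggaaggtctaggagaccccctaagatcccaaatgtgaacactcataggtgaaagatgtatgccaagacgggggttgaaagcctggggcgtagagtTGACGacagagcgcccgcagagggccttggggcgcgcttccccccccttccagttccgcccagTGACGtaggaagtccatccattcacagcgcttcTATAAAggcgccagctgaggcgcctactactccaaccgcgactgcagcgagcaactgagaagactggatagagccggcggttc
Jun: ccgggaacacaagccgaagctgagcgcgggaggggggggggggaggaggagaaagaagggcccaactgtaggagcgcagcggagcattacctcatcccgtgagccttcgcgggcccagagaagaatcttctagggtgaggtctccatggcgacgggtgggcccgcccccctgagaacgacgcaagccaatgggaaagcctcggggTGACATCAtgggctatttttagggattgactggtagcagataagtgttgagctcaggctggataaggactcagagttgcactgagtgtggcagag
Atf3: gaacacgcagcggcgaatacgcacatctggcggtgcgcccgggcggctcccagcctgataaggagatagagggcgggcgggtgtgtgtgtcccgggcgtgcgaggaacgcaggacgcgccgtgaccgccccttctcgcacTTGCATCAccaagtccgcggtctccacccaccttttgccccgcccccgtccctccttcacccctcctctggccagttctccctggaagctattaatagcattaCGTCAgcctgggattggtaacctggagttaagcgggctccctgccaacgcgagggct

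The motifs searched on both strands were the AP-1 site TGAGTCA, the cyclic AMP response element (CRE) TGACGTCA, its half-site TGACG, which lies within the full element, the CRE-like TGACATCA, the EGR site GCGTGGGCG, the amino acid response element core TGATGCAA, the TCF/LEF sites CTTTGAT and CTTTGAA, and the CArG box of serum response factor, with the TATA box TATAAA on the gene's own strand. In the *Fos* window the half-site lay 62 to 66 and 125 to 129 bases before the start, and a TATA box 28 to 33 bases before it. The *Jun* window held TGACATCA 38 to 45 bases before the start, a match found in 3.62% of 32851 promoter windows of this length. That of *Atf3* held the amino acid response element core, on the reverse strand as TTGCATCA, 103 to 110 bases before the start (0.895% of all windows), and a reverse half-site 3 to 7 bases before it. The half-site was in 4 of the 7 windows, those of *Fos*, *Fosb*, *Junb* and *Atf3*, and in 20.8% of all windows. None of the 7 windows held the AP-1 site (5.2% of all windows), the full CRE (1.79%), the EGR site (0.612%), a TCF/LEF site (8.65%) or a CArG box (1.63%), and those of *Jund* and *Fosl2* held no match to any motif. The letters of the TATA box were in 2 of 7 windows, of *Fos* and *Junb*, and in 8.32% of all. In the *Junb* window they begin at the start given in the RefSeq table and not before it. Such matches describe letters in a window and not binding. Bases more than 250 before the start were not searched, nor were *Fosl1*, *Egr1* and *Ier2*. The lack of a match in a window therefore does not mean that a gene lacks the site.

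The total count lay between 18216537 and 20397278 in the 6 libraries. *Tcf7l1* had 363 to 476 normalized counts in the wild type and 33.0 to 72.9 in the mutants, so the labels hold for every library. *Shh*, whose locus carries Cre, was also lower (log2 fold change -1.28, adjusted p = 6.1e-05 from edgeR). *Xist* had 0 counts in all wild type and 237 to 451 normalized counts in the mutants, and the Y-linked *Ddx3y* had 1743 to 2110 in the wild type and 0 in the mutants. Sex therefore cannot be told apart from genotype, nor can the Cre allele or lower *Shh*. Of 12 epithelial markers all were counted, *Epcam* at a mean of 51902 in the wild type and 61570 in the mutants. By the call defined below, 4 were lower in mutants, *Cdh1*, *Krt18*, *Cldn6* and *Cdx2*, and 0 higher. This is 33.3% of the list, where 5.83% of all tested genes were called lower. At an adjusted p under 0.01 from edgeR alone, 6 were lower and 1 higher, where 7.61% and 7.32% of all tested genes were. The summed level of 12 mesenchyme markers was 201 to 315 in the wild type and 210 to 807 in the mutants, and that of 6 neural crest markers 207 to 244 and 194 to 278. For 6 endothelial markers it was 0 to 12.3 and 0 to 21.7, with *Cdh5*, *Kdr*, *Tek* and *Emcn* at 0 in all libraries, and for 11 blood and immune markers 61.8 to 107 and 59.6 to 109.6, with *Ptprc*, which marks leukocytes, at 0. The mesenchyme sum and the blood and immune sum each join genes that went in opposite directions. Of the 2 blood and immune markers tested, *Cd68* went from a mean of 61.4 in the wild type to 78.7 in the mutants. The other, *Hbb-y*, went from 22.8 to 5.36, and 0 were called. Of the 6 mesenchyme markers tested, 3 were higher and 3 lower in mutants, and 0 were called. *Acta2* had 95.1, 171 and 488 normalized counts in mutants 1, 2 and 3, and *Col3a1* went from a mean of 29.9 in the wild type to 6.36 in the mutants. The part of all these marker lists in the results was not tested. In such bulk samples fewer cells of a type and less RNA per cell cannot be told apart.

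All 10 genes passed the filter on low counts and were among the 12501 genes tested by the quasi-likelihood method of edgeR, with p-values adjusted over all of these by Benjamini-Hochberg. A call required an adjusted p below 0.01, a log2 fold change of 0.5 or more in either direction and 50 or more normalized counts on average. *Atf3* was called higher and *Jun* lower in the mutants, against a background of 2.78% of all tested genes called higher and 5.83% called lower. At the adjusted p of 0.01 alone, *Atf3* and *Ier2* were higher and *Jun*, *Fos* and *Jund* lower, where 7.32% and 7.61% of all tested genes were higher and lower. Mutant and wild type libraries had separate ranges for 8 of the 10 genes, against 43.0% of all tested genes. The gap was narrow for *Egr1*, with 12183 in the lowest mutant and 12177 in the highest wild type library. For *Fosl1* these values were 46.4 and 42.8. The median log2 fold change of the 10 was 0.17, and that of all tested genes -0.04. The genes therefore went in both directions within the same libraries.

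**Figure D1:**
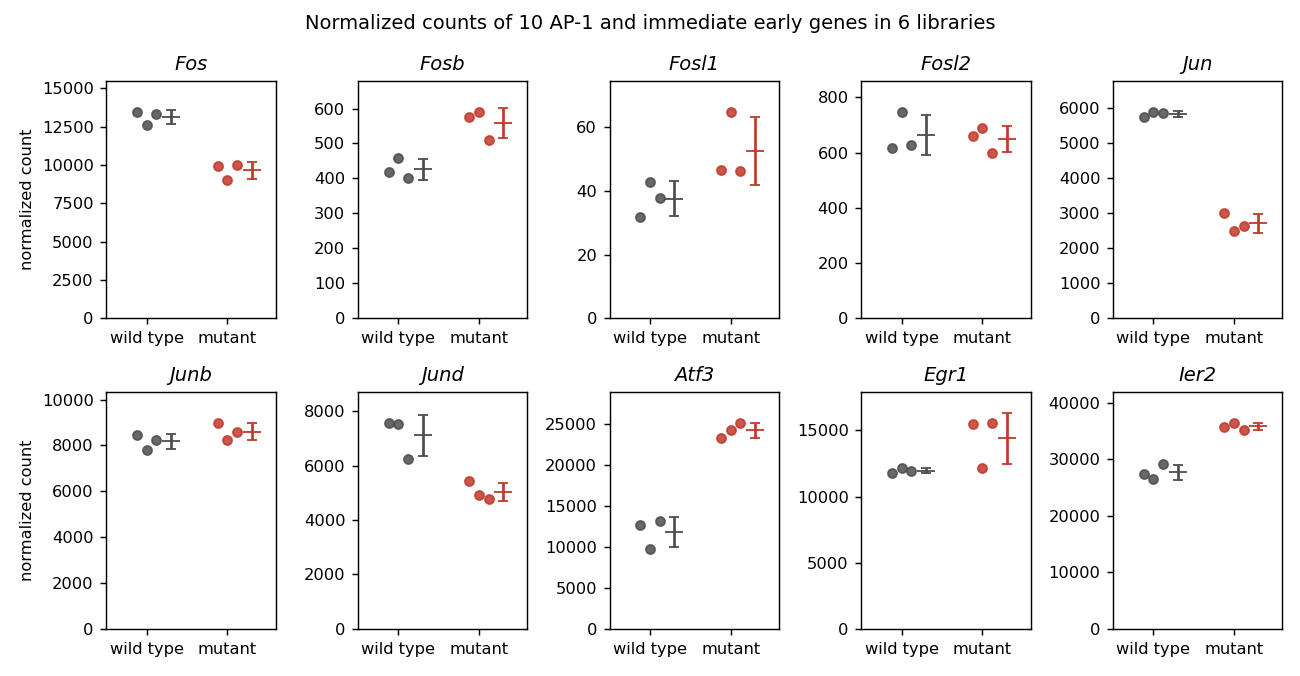
Normalized counts (vertical axes, each from 0) of the 10 genes, with a point for each of 3 wild type (grey) and 3 mutant (red) libraries and the mean ± SD beside them. *Jun*, *Fos* and *Jund* lie lower in every mutant library, *Atf3* and *Ier2* higher, and *Junb* and *Fosl2* overlap.

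*Jun* (ENSMUSG00000052684, chr4:94715725-94718913 of mm9, minus strand) encodes a JUN partner of AP-1. It had 5738, 5886 and 5845 normalized counts in the wild type libraries numbered 1, 2 and 3, against 2994, 2496 and 2621 in the mutants numbered 1, 2 and 3. Every mutant library lay below every wild type library, and the wild type libraries were close to each other. The mean fell from 5823 ± 76.4 to 2704 ± 259 (mean ± SD, n = 3), a ratio of 0.464 (log2 fold change -1.11, SE 0.08, 95% interval -1.27 to -0.94, adjusted p = 7.5e-08 from edgeR). Among the 4270 tested genes with a mean of at least 1000 normalized counts, 15 had a lower log2 fold change. Among all 12501 tested genes *Jun* was at percentile 5.57 of the log2 fold change. An opposite-strand gene, which was not analysed here, covers 7.28% of its exon bases, and reads of such a pair cannot be told apart where counting ignores strand, which is not stated.

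*Jund* (ENSMUSG00000071076, chr8:73221638-73224515, plus strand) encodes a JUN protein that resting cells also make. Its normalized counts were 7581, 7527 and 6248 in the wild type and 5420, 4930 and 4772 in the mutants. Wild type 3 was nearest to the mutants, and the groups did not overlap. The mean fell from 7119 ± 755 to 5041 ± 338 (log2 fold change -0.50, SE 0.08, 95% interval -0.68 to -0.32, adjusted p = 5.1e-04 from edgeR), just short of the fold that a call required. *Jund* passed the call in 4 of 13 refits, among them without wild type 3 (-0.57) and without mutant 1 (-0.55). With the correction for gene length its log2 fold change shrank to -0.32 (adjusted p = 0.0069 from edgeR). An opposite-strand gene covers 18.9% of its exon bases.

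*Junb* (ENSMUSG00000052837, chr8:87500811-87502617, minus strand) encodes a weaker activator that can hold back JUN. It had 8470, 7820 and 8220 normalized counts in the wild type and 8991, 8241 and 8577 in the mutants. These values overlap, with wild type 2 the lowest and mutant 1 the highest. The means were 8170 ± 328 and 8603 ± 376 (log2 fold change 0.07, 95% interval -0.07 to 0.22, adjusted p = 0.44 from edgeR), and with library size as the only scaling the sign turned (-0.03).

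*Fos* (ENSMUSG00000021250, chr12:86814840-86818223, plus strand) encodes the founding FOS protein and is a classical immediate early gene. Its normalized counts were 13451, 12592 and 13296 in the wild type and 9932, 9022 and 9997 in the mutants. The lowest wild type library was above the highest mutant library. The mean fell from 13113 ± 458 to 9650 ± 545 (log2 fold change -0.44, SE 0.07, 95% interval -0.59 to -0.30, adjusted p = 2.2e-04 from edgeR), under the fold that a call required. Over the refits the log2 fold change ran from -0.55 with library size as the only scaling, where *Fos* was called, to -0.36 with the correction for gene length.

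*Fosb* (ENSMUSG00000003545, chr7:19888070-19895394, minus strand), a close relative of *Fos*, had 418.5, 459 and 401 normalized counts in the wild type and 576, 590.1 and 510.2 in the mutants. Each mutant library was above each wild type library. With a log2 fold change of 0.39 (95% interval 0.10 to 0.68, adjusted p = 0.041 from edgeR) the difference did not pass the test. It passed with the correction for gene length alone among the refits (log2 fold change 0.63, adjusted p = 0.00255).

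*Fosl1*, which encodes FRA1, was the least abundant, with 31.8, 42.8 and 38.0 normalized counts in the wild type and 46.5, 64.9 and 46.4 in the mutants. Its counts set a counting error of 15.8% in the wild type and 14.2% in the mutants, about as large as the SD between libraries (14.7% and 20.2%). The log2 fold change of 0.49 had a 95% interval from -0.37 to 1.34 (adjusted p = 0.39 from edgeR), so a difference was not detectable at this depth. The opposite-strand gene *Ccdc85b* covers 68.1% of its exon bases.

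*Fosl2*, which encodes FRA2, had 617, 747 and 629 normalized counts in the wild type and 659.6, 691 and 599 in the mutants. The groups overlap, with wild type 2 the highest and mutant 3 the lowest. The log2 fold change was -0.03 (95% interval -0.30 to 0.24, adjusted p = 0.87 from edgeR), and its sign turned in 3 of 13 refits, namely with the correction for gene length (0.21), without wild type 2 (0.06) and without mutant 3 (0.02).

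*Atf3* (ENSMUSG00000026628, chr1:192994175-193007219, minus strand) encodes a stress-induced bZIP factor of the ATF family. It had 12696, 9770 and 13124 normalized counts in the wild type and 23336, 24219 and 25166 in the mutants. All mutant libraries were above the highest wild type library, and wild type 2 was the lowest. The mean rose from 11863 ± 1825 to 24241 ± 915 (log2 fold change 1.03, SE 0.09, 95% interval 0.84 to 1.22, adjusted p = 9.6e-07 from edgeR), 2.04-fold. Among the 4270 tested genes with a mean of at least 1000, 15 had a higher log2 fold change. Among all 12501 tested genes *Atf3* was at percentile 98.3. *Atf3* and *Jun* were called in all 13 refits, with log2 fold changes from 0.91 to 1.12 and from -1.21 to -0.91.

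*Ier2* (ENSMUSG00000053560, chr8:87185230-87186751, minus strand), a short immediate early gene, had 27417, 26429 and 29170 normalized counts in the wild type and 35782, 36466 and 35221 in the mutants. The mutant libraries were close together and all above the wild type. The mean rose from 27672 ± 1388 to 35823 ± 623 (log2 fold change 0.37, SE 0.06, 95% interval 0.24 to 0.50, adjusted p = 4.2e-04 from edgeR), under the fold that a call required.

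*Egr1*, a zinc finger immediate early gene that shares its inducers with *Fos*, had 11764, 12177 and 11953 normalized counts in the wild type and 15466, 12183 and 15587 in the mutants. Mutant 2 was level with wild type 2, and the other mutant libraries were higher. The log2 fold change was 0.27 (95% interval 0.09 to 0.45, adjusted p = 0.026 from edgeR) and did not pass the test. It passed in 4 of 13 refits, namely without mutant 2 (0.38, adjusted p = 0.0031), with DESeq2 (0.29, adjusted p = 0.0041), with no filter on low counts (0.27, adjusted p = 0.0067) and with the gene length correction (0.46, adjusted p = 0.0010), each short of the fold that a call required.

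**Figure D2:**
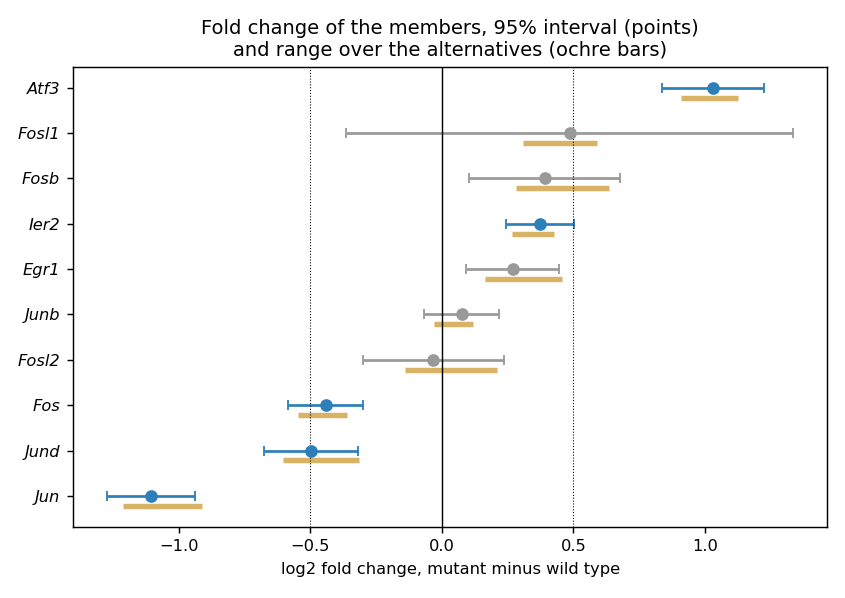
Log2 fold change (horizontal axis, mutant minus wild type) of the 10 genes with its 95% interval from edgeR, in blue where the adjusted p is under 0.01. Ochre bars span the refits and dotted lines mark the fold limit of 0.5, which *Atf3* and *Jun* lie beyond across all their refits.

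Levels of different genes were compared as CPM (counts scaled to a fixed library total) per kb of the longest annotated transcript. In wild type libraries *Ier2* was the most abundant at 933 ± 46.8 CPM per kb, followed by *Fos* (319 ± 11.1), *Atf3* (307 ± 47.2), *Junb* (232 ± 9.31), *Egr1* (198 ± 3.42), *Jund* (127 ± 13.5) and *Jun* (93.7 ± 1.23). *Fosb* (5.83 ± 0.40), *Fosl2* (5.82 ± 0.63) and *Fosl1* (1.13 ± 0.17) were far lower. *Fos* and *Atf3*, and *Fosb* and *Fosl2*, overlapped in their library values and so have no order in wild type. In mutant libraries the order of levels was *Ier2* (1208 ± 21.0), *Atf3* (627 ± 23.7), *Junb* (244 ± 10.7), *Egr1* (239 ± 31.97), *Fos* (235 ± 13.3), *Jund* (89.9 ± 6.02) and *Jun* (43.5 ± 4.17). Here *Junb*, *Egr1* and *Fos* all overlapped with each other in their library values and so have no order. Over all libraries, 22 of 11874 genes with a known length were above *Ier2* on this scale, 128 above *Atf3* and 280 above *Fos*.

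**Figure D3:**
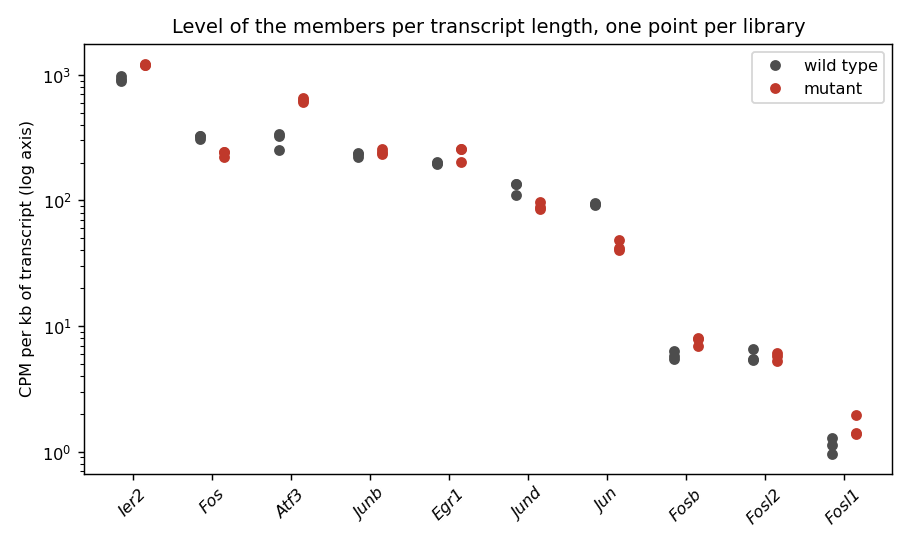
Level of each gene in CPM per kb of transcript (log axis), with a point for each wild type (grey) and mutant (red) library, ordered by the wild type mean. *Fos* and *Atf3* share a level near 300 in wild type libraries and are apart in the mutants, at 235 and 627.

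The balance among AP-1 genes was described by levels per kb, with no test. The summed level of *Fos*, *Fosb*, *Fosl1* and *Fosl2* was 340, 321 and 336 CPM per kb in the wild type and 257, 236 and 257 in the mutants, and *Fos* held 96.1% of it in the wild type and 94.0% in the mutants. The summed level of *Jun*, *Junb* and *Jund* was 468, 451 and 439 in the wild type and 400.2, 362 and 371 in the mutants. Within this family *Jun* held 19.7%, 21.0% and 21.4% in the wild type and 12.04%, 11.1% and 11.4% in the mutants. The share of *Junb* was 49.2% to 53.2% in the wild type and 63.8% to 65.7% in the mutants, and that of *Jund* 25.4% to 29.8% and 22.9% to 24.3%. The ratio of *Atf3* to *Jun* levels was 3.56, 2.67 and 3.61 in the wild type and 12.5, 15.6 and 15.4 in the mutants. For *Atf3* to *Fos* it was 1.003, 0.824 and 1.05 against 2.497, 2.85 and 2.67, and for *Egr1* to *Fos* 0.59 to 0.66 against 0.92 to 1.06. Such ratios within a library do not depend on scaling by a single factor per library. They would change with the correction for gene length, which shifts genes unequally and was not applied to them. They are of RNA and not of protein.

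**Figure D4:**
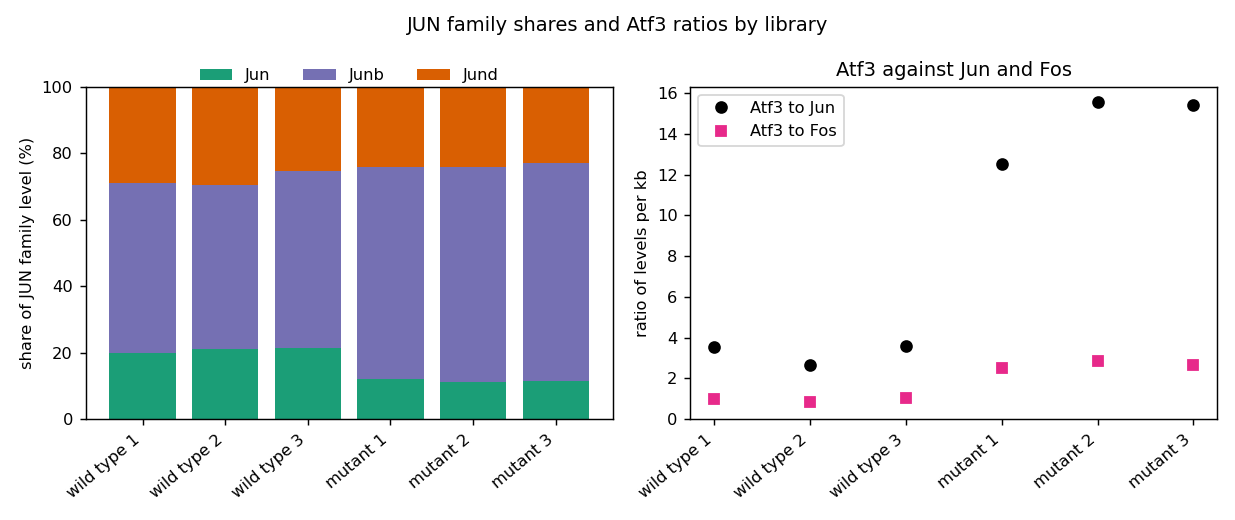
Left, share of *Jun*, *Junb* and *Jund* in the summed JUN family level (%) in each library, and right, ratio of the *Atf3* level to that of *Jun* (circles) and *Fos* (squares), both from CPM per kb. The share of *Jun* is 19.7% to 21.4% in the wild type and 11.1% to 12.04% in the mutants, and both ratios are higher in every mutant library.

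The spread between libraries of a group was larger than counting error for most of the genes. For *Fos*, *Junb*, *Jund*, *Atf3* and *Ier2*, the SD between libraries was 1.74% to 15.4% of the mean, and counting alone gives 0.546% to 1.45%. For *Jun* in wild type libraries the SD was 1.31% of the mean, near the 1.27% of counting. Wild type 1, wild type 2 and mutant 3 were each the highest library for 2 of the 10 genes, mutant 2 for 3 and mutant 1 for 1. Reads carried no molecular identifiers after 15 cycles of amplification, so counting error here is that of reads and not of molecules. The biological coefficient of variation fitted by edgeR was 0.060 to 0.082 for the 7 most abundant genes, against a common value of 0.144, and 0.300 for *Fosl1*.

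Other genes of the response and of its pathway were taken from textbook lists. Of all tested genes 2.78% were called higher and 5.83% lower, with a median log2 fold change of -0.04, beside which each list is read. Of 45 other immediate early genes 41 were tested, and 7 were called higher (17.1%) and 2 lower (4.88%), with a median of 0.09. *Plk3*, a stress-responsive kinase gene, rose from 272 ± 6.98 to 794 ± 93.4 normalized counts (log2 fold change 1.55), *Sgk1*, a kinase gene induced by serum and glucocorticoids, by 1.11 and *Nfkbia*, the NF-kappaB inhibitor gene, by 0.98 on the log2 scale. *Ctgf* (0.97), *Bhlhe40* (0.96) and *Klf6* (0.94) were also called higher, *Klf6* from 11683 ± 889 to 22420 ± 605 normalized counts. *Ier5l* (-0.92) and *Nfkbiz* (-0.54) were called lower, though the call of *Ier5l* was kept without wild type 3 but lost without any other single library, and that of *Nfkbiz* was lost without wild type 1 or mutant 1 and after correcting for gene length (-0.27, adjusted p = 0.041 from edgeR). *Cyr61*, the most abundant of the list at 32969 ± 2125 and 33766 ± 2412 normalized counts, had a log2 fold change of 0.03 (95% interval -0.11 to 0.18, adjusted p = 0.75 from edgeR). *Egr2*, a relative of *Egr1* chosen after its values were seen, fell from 1971 ± 242 to 1477 ± 50.9 (log2 fold change -0.42, adjusted p = 0.0053 from edgeR), under the fold of a call.

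Of 24 bZIP relatives 20 were tested, and 2 were called higher (10%) and 0 lower, with a median of -0.15. DESeq2 called 3 of them higher and 0 lower, where it called 410 of all genes higher and 789 lower. At an unadjusted p under 0.05 from edgeR, 5 of them were higher and 2 lower. The share of all tested genes at this unadjusted limit was not computed. Such counts, here and for the lists below, therefore cannot show a lean of a list. *Maff*, a small MAF gene, rose from 596 ± 30.6 to 984 ± 61.9 normalized counts (log2 fold change 0.72, adjusted p = 2.6e-04 from edgeR), and *Ddit3*, a stress-induced gene that encodes CHOP, from 375 ± 61.9 to 675 ± 148 (0.85, adjusted p = 0.0020). The call of *Ddit3* was lost when wild type 1, wild type 2 or mutant 2 was left out. *Atf4*, which encodes an upstream factor of the amino acid and stress response, rose from 5126 ± 176 to 7114 ± 279, at a log2 fold change of 0.47 under the limit of a call (adjusted p = 1.3e-04). *Nfe2l2*, the gene of the oxidative stress factor NRF2, had 4531 ± 137 and 3851 ± 193 (log2 fold change -0.23, adjusted p = 0.022).

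Of 34 genes of the RAS, MAP kinase and serum response factor route to the immediate early promoters 32 were tested. In each direction 1 was called (3.1%), with a median of -0.06. *Srf*, the gene of serum response factor, rose from 444 ± 49.2 to 728 ± 66.3 normalized counts (log2 fold change 0.71, adjusted p = 0.0012 from edgeR), with the call lost without wild type 1 (adjusted p = 0.010). *Map2k7*, a kinase gene of the JNK branch that acts on JUN, fell from 387 ± 53.2 to 221 ± 16.6 (-0.81, adjusted p = 0.0025), with the call lost without wild type 2 or mutant 1 and after correcting for gene length (-0.59, adjusted p = 0.013). The most abundant of the list were *Rps6ka1*, which fell from 12568 ± 1175 to 10080 ± 782 (-0.32, adjusted p = 0.0077), and *Mapk13*, which rose from 5806 ± 105 to 7511 ± 267 (0.37, adjusted p = 8.0e-04), each under the fold of a call. Of 11 ERK feedback genes, all tested, 0 were called higher and 1 lower (9.1%), with a median of -0.16. The gene called lower was *Etv4*, an ETS factor gene downstream of ERK (log2 fold change -0.77, adjusted p = 0.0036), and its call was kept without wild type 2 or mutant 2 but lost without each of the other 4 libraries. *Spry1* rose from 6344 ± 409 to 8865 ± 301 (0.48, adjusted p = 1.4e-04), under the fold of a call, *Dusp6* had a log2 fold change of 0.07 (adjusted p = 0.61), and DESeq2 called 1 of the list higher. At an unadjusted p under 0.05, 1 of the list was higher and 2 were lower.

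Of 24 textbook AP-1 target genes 15 were tested, since 4 genes had 0 counts in all libraries and 5 were too low, and 5 were called higher (33.3%) and 0 lower, with a median of -0.04. Leaving out 1 library at a time, this median ran from -0.21 to 0.32, so its sign is not settled. *F3*, the tissue factor gene, rose from 2455 ± 300 to 6327 ± 264 normalized counts (log2 fold change 1.37), *Hbegf* and *Areg*, which encode EGF receptor ligands, by 0.63 and 0.93, *Plaur*, the urokinase receptor gene, by 0.72 and *Hmox1*, the heme oxygenase gene, by 0.92 on the log2 scale. The call of *Hmox1* was kept without wild type 2 or mutant 3 but lost without each of the other 4 libraries and with library size alone (0.81, adjusted p = 0.019). The most abundant of the list, *Ezr* (log2 fold change -0.22, adjusted p = 0.056) and *Clu* (-0.38, adjusted p = 0.0017, from 7214 ± 496 to 5536 ± 359), were not called. At an unadjusted p under 0.05, 5 of the list were higher and 4 lower, and DESeq2 called 0 lower.

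Of 14 heat shock genes, which stress and cell handling are known to induce, all were tested. Of these 1 was called higher (7.1%) and 0 lower, with a median log2 fold change of 0.13. DESeq2 called 2 higher and 0 lower, and at an unadjusted p under 0.05 in edgeR 5 were higher and 1 lower. The summed level of the list, given with no test, was 149550 to 155400 normalized counts in the wild type and 167480 to 168850 in the mutants, and its most abundant genes were not called. The gene called higher was *Hspa1b* (44.1 ± 9.63 to 112 ± 22.8 normalized counts, log2 fold change 1.34, adjusted p = 0.0057 from edgeR), which shares nearly all its sequence with *Hspa1a* and is therefore uncertain, and it was called without wild type 2 but not without any other single library, nor with library size alone (1.23, adjusted p = 0.012). *Hsp90ab1* had 55734 ± 2757 and 59098 ± 1387 (0.08, adjusted p = 0.31), and *Hspa8* 34817 ± 1788 and 40262 ± 294 (0.21, adjusted p = 0.017). Their part in the levels of the immediate early genes was not tested.

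**Figure D5:**
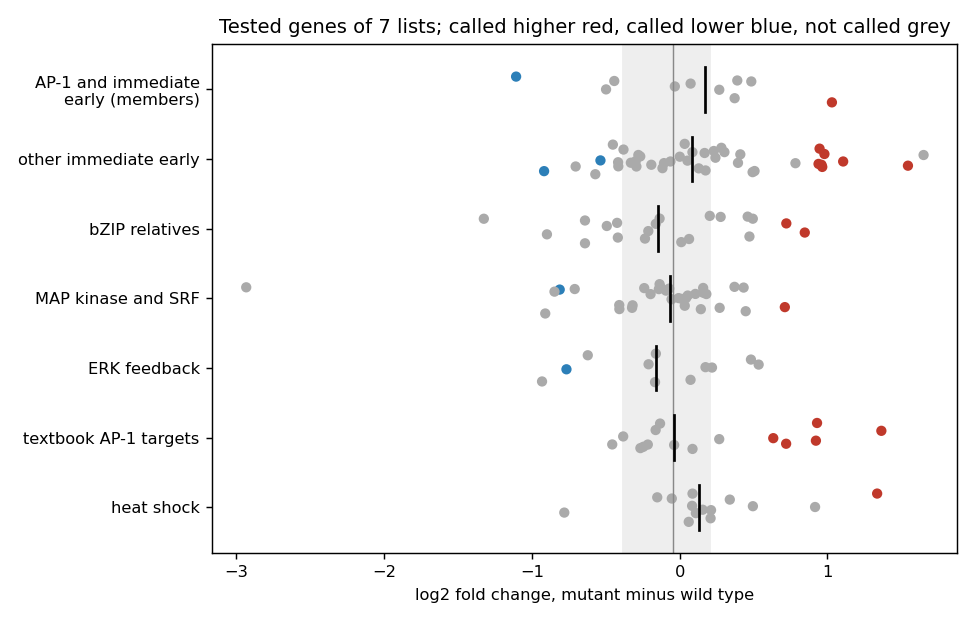
Log2 fold change (horizontal axis, mutant minus wild type) of the tested genes of 7 lists, with called genes in red (higher) and blue (lower) and a black bar at each median. The grey band spans the middle of all tested genes, from -0.38 to 0.20 (lower to upper quartile). Called genes lie on both sides of 0, and the medians of the lists run from -0.16 to 0.17.

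The tested genes with the most similar profile over the 6 libraries were found by the Euclidean distance between centred log2 CPM values. For *Jun* they were *Cdk5rap1* (distance 0.0944), *Prcp* (0.16) and *Rgs17* (0.19), with log2 fold changes of -1.14, -1.15 and -1.002. For *Atf3* they were *Enpp3* (0.18), *Ifrd1* (0.23) and *Ppap2a* (0.24), with log2 fold changes of 1.08, 1.09 and 1.101. None of these is in the lists used here, and with 6 libraries in 2 groups these profiles share the difference between groups.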

How the data were processed

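RNA from 500 sorted cells per library was made into cDNA from polyadenylated RNA and amplified for 15 cycles. The deposited files hold counts of reads per gene, which the authors made for each library with STAR 2.5.2b, mm9 and featureCounts 1.5.1, as named in the submitters' processing notes, and which were not normalized. Whether counting used strand is not given in the sources used here.

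Counts of the 6 libraries were analysed together in R 4.3.3 with edgeR 4.0.16 (TMM normalization, filterByExpr, quasi-likelihood test, mutant against wild type, 3 libraries per group). Adjusted p-values are by Benjamini-Hochberg over 12501 genes, and intervals are at 95%. Normalized counts were scaled to the effective library sizes. Calls needed an adjusted p below 0.01, a log2 fold change of 0.5 or more in either direction and 50 or more normalized counts on average. An exact permutation test of 3 against 3 libraries cannot give a two-sided p under 0.1 and was not used. DESeq2 1.42.0, other scalings, filters, thresholds, a gene length correction, a replicate block and leaving out each library were the alternatives. Positions and lengths are from GENCODE M1 on mm9, and a search with BLAST+ 2.17.0 found no near-identical copy of any of the 10 genes.

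The members and lists were chosen with earlier results of these data known. Named were all 10 members, called list genes up to the 5 with the largest change in each direction, the 2 most abundant genes of each list, the 3 tested genes nearest in profile to each called member, and *Tcf7l1*. Other genes named are checks of sex, Cre, cell type or overlap, except *Egr2*, which was chosen after its values were seen. The promoter motifs were chosen after the data were seen. P-values set the difference between the groups against the spread between these libraries, which are given as biological replicates with no litter stated.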

Additional observations from a re-analysis of the deposited data

How the results depend on the processing

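*Jun* and *Atf3* kept their calls in all 13 refits, and *Fos*, *Jund* and *Ier2* kept an adjusted p under 0.01. The causes of the changes below were not tested. The sign of *Junb* turned with library size alone (-0.031), and that of *Fosl2* with the gene length correction (0.21), without wild type 2 (0.061) and without mutant 3 (0.024), within -0.083 to 0.061 over the libraries left out. With library size alone, 3 of the 10 members were called lower (*Fos*, *Jun*, *Jund*), 200 of all genes were called higher (17.3% of calls, against 32.3%), 4 other immediate early, 2 ERK feedback and 1 AP-1 target genes were called lower and 0 heat shock genes higher. With the gene length correction, 715 of all genes were called higher and 363 lower (66.3% higher), 2 members (*Atf3*, *Fosb*), 4 bZIP, 2 MAP kinase, 1 ERK feedback and 2 heat shock genes were called higher, and 1 other immediate early and 0 MAP kinase genes lower. These scalings shifted the median log2 fold change of all genes by -0.107 and 0.131. DESeq2 and RLE normalization each called 1 ERK feedback and 2 heat shock genes higher. At a log2 fold change of at least 1, 85 of all genes were called higher and 284 lower, with 2 other immediate early, 0 bZIP, 0 MAP kinase and 1 AP-1 target genes higher and 0 other immediate early, 0 MAP kinase and 0 ERK feedback genes lower. At an adjusted p under 0.05, 1178 of all genes, 2 MAP kinase, 2 ERK feedback and 1 heat shock genes were called lower. With only genes of a mean of at least 50 counts, 2 members were called lower (*Jun*, *Jund*), without a filter 2 ERK feedback genes, and without a minimum mean 2 MAP kinase genes. Leaving out 1 library at a time, 405 to 867 of all genes were called lower (405 without wild type 1, 406 without wild type 2, 463 without mutant 2), 1 to 2 members (2 without wild type 3 or mutant 1), 0 to 2 other immediate early, 0 to 1 MAP kinase and 0 to 1 ERK feedback genes, and 1 to 3 bZIP, 0 to 1 MAP kinase, 0 to 1 ERK feedback and 0 to 1 heat shock genes were called higher. With the replicate block, 339 of all genes were called higher and 691 lower, and *Jun* (-1.11) and *Atf3* (1.04) were the members called. Same-numbered libraries did not deviate together (correlations 0.01, -0.045 and -0.018), so the numbers were not taken as pairs. Depth limits *Fosl1* (268 reads in all libraries).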
